A study of Mus musculus with 22 samples.

Results

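The messenger RNAs for the proteins of the cytosolic ribosome were followed in ribosome pulldowns from striatal D1 neurons and in the lysates they came from. The genes were taken by symbol. A symbol counted if it starts with Rpl or Rps followed by a digit, or is Rplp0, Rplp1, Rplp2 or Rpsa. Symbols starting with Rps6k, which are kinases, and symbols with -ps, which are pseudogenes, were left out. The rule gave 93 of the 55341 symbols counted, of which 42 encode proteins of the large subunit, 31 proteins of the small subunit and 3 proteins of the stalk. A further 15 are close copies of these genes (paralogs or retrogenes), Rps19bp1 encodes a protein that binds a ribosomal protein and is not itself part of the ribosome, and Rpl10a is the gene whose protein carries the tag used in the pulldown. Rpl10a is described apart, so that 92 symbols remain. The annotation lists 86 of the 93 as protein coding and 7 as pseudogenes (Rpl32l, Rpl37rt, Rpl6l, Rps12l1, Rps3a2, Rps3a3 and Rps4l).

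Libraries came from 4 groups of mouse striata. KO pulldown (5 libraries) and WT pulldown (6 libraries) held RNA bound to EGFP-tagged Rpl10a from Fmr1 mutant animals and from wild-type animals, and KO input (5 libraries) and WT input (6 libraries) held RNA of the same cleared lysates. All 11 animals, of both genotypes, carried the tagged protein in medium spiny neurons that express the dopamine receptor Drd1. Fmr1 encodes FMRP, an RNA-binding protein found on ribosomes, and its loss causes fragile X syndrome. The labels do not give the age, sex, strain or litter, the allele of Fmr1, or the promoter that drives the tag. The series asks which mRNAs are translated differently in D1 neurons of the mutant.

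A ribosome has a small subunit, which reads the mRNA, and a large subunit, which joins amino acids, and each ribosomal protein is needed in about equal amount. In mammals most of these mRNAs begin at a C followed by a run of pyrimidines, the 5′ terminal oligopyrimidine (TOP) motif. Larp1 binds it, and the kinase mTOR controls through it how many TOP mRNAs are held off ribosomes. In brain, FMRP loss has long been studied for its effect on protein synthesis, and ribosomal protein mRNAs are short and abundant.

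Start sites are shown for Rpl10a and for some of the most and some of the least depleted genes given below, because the TOP motif lies there. RefSeq promoters (GRCm38.p6) were found for 68 of the 93 symbols. Each sequence has 15 bases before the annotated start and 15 from it on, so that the 16th base is the start, written 5′ to 3′ on the gene's strand. Capitals mark the unbroken run of C and T that holds the start base. Rpl10a has another annotated start, which has no such run and is not printed. Rps27l, more depleted than Rpsa in both genotypes, has no such run at its annotated starts and is not printed. Rps19bp1 and Rpl36al, less depleted than Rpl6 in both genotypes, have promoters and are not printed either.
Rps27, chr3:90213634-90213663, minus strand: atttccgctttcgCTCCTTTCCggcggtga
Rps27rt, chr9:114982725-114982754, minus strand: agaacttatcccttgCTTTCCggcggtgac
Rps2, chr17:24720048-24720077, plus strand: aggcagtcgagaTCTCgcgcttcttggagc
Rpsa, chr9:120127751-120127780, plus strand: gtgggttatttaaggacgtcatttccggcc
Rpl15, chr14:18270972-18271001, minus strand: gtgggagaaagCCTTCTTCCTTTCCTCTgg
Rpl6, chr5:121204486-121204515, plus strand: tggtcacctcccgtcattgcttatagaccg
Rpl7l1, chr17:46782642-46782671, minus strand: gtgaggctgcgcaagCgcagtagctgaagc
Rpl10a, chr17:28328456-28328485, plus strand: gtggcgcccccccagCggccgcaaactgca

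Rpl15 had the longest run of these 8, with 17 bases, and Rpsa and Rpl6 had none at the annotated base. Over the 73 promoters of 62 tested coding genes of the set, Rpl10a included, 14 (19.2%) started at a C followed by 4 pyrimidines, against 2.31% of 15169 promoters of other tested genes and 2.51% of all 32851 promoters in the table. The letters CTTTC, or their reverse complement GAAAG, lay within the 60 bases around the start in 39.7% of the set's promoters, against 12.3% of those of other tested genes and 14.9% of all. Annotated starts can be off by some bases, so a gene without the motif here may still have it.

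Beyond the start, the genes share small size and many copies. Of the genes tested, 81 are protein coding with Rpl10a and Rps19bp1 set aside, and their coding length ran between 75 and 1257 bases with a median of 453, against a median of 1407 bases over other genes. Of the 93, 55 had more than 50% of their 50-base windows in the transcript of another gene as well, and the median gene had 56.6% of its windows shared. Counts of such genes depend on how the authors' counting split reads among copies, and are uncertain to that degree. Exons of 17 of the genes overlapped another gene over more than 10% of their length, and the kit did not mark strand. The 300 symbols with -ps that the rule left out took between 2.23% and 3.21% as many reads as the set itself.

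Fmr1, the mutated gene, was checked against the labels. Levels are given in CPM, read counts scaled to a common library size. Fmr1 had 10.8, 11.3, 8.15, 10.4 and 9.23 CPM in the KO pulldowns and between 70.1 and 107.8 CPM (median 84.8) in the WT pulldowns. It had 14.2, 11.1, 13.5, 14.98 and 11.9 CPM in KO input and between 59.6 and 72.4 CPM (median 61.8) in WT input. Each KO library lay below each WT library, with an exact permutation p of 0.00216 in each assay, 2-sided, the smallest that 462 divisions of 5 and 6 animals allow. Total counts ran between 9375611 and 82376192 in the pulldowns and between 25164548 and 43276230 in input. Animals 3 and 9 (KO) and 1 and 12 (WT) stood apart: Slc17a7, a transporter of cortical excitatory neurons, lay between 25.2 and 113.1 CPM in their input and between 0.64 and 3.30 CPM in the input of the other 7. Results that rest on genotype are therefore given with and without these 4 animals.

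Transcripts of the set made up a small share of the counts, smaller in pulldown than in input. With the mitochondrial ribosomal RNAs left out, which took 0.420% to 0.904% of pulldown counts and 25.1% to 53.2% of input counts, the set held 0.711%, 0.820%, 0.561%, 0.752% and 0.752% of counts in the pulldowns of KO animals 2, 3, 9, 10 and 11, against 1.87%, 1.82%, 1.44%, 2.15% and 2.16% in their input. In WT animals the share lay between 0.537% and 0.733% (median 0.674%) in the pulldowns and between 1.38% and 1.90% (median 1.52%) in input. The highest pulldown of either genotype lay below the lowest input. Mean shares were 0.719% ± 0.0968 in KO pulldowns (SD, n = 5) and 0.661% ± 0.0761 in WT pulldowns (SD, n = 6), and 1.89% ± 0.294 in KO input (SD, n = 5) and 1.57% ± 0.195 in WT input (SD, n = 6).

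**Figure D1:**
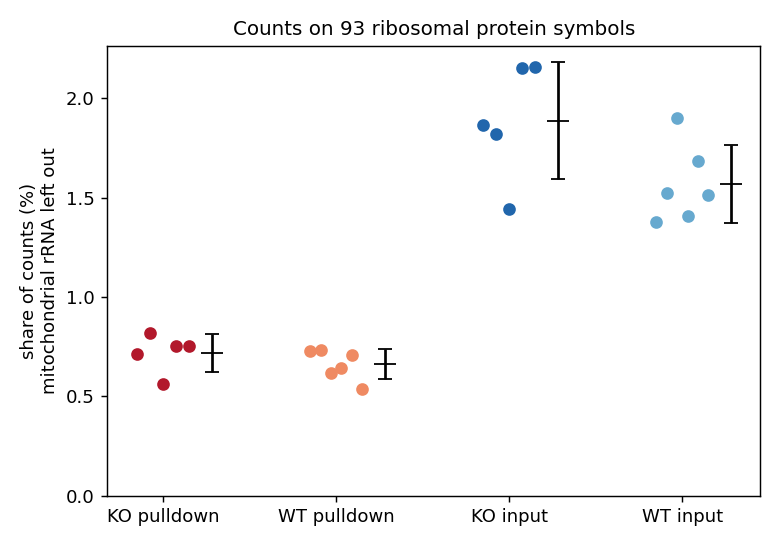
Share of counts on the 92 symbols without Rpl10a in each of 22 libraries, in percent of all counts but the mitochondrial ribosomal RNAs, by group. The title in the picture names 93 symbols, but counts of Rpl10a are not in the shares. Points are libraries and the bar beside them is the mean ± SD. The pulldowns lie between 0.537% and 0.820%, and the inputs lie between 1.38% and 2.16%.

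Levels were compared between genes only after division by transcript length, in CPM per kilobase (kb) of annotated transcript. Across the same 81 coding genes, the highest stood 80.8-fold above the lowest in KO pulldowns, 87.6-fold in WT pulldowns, 222-fold in KO input and 181-fold in WT input. Rps27, a small-subunit protein, was the highest, with levels of 409 ± 104 and 387 ± 59.8 CPM per kb in KO and WT pulldowns and 1589 ± 384 and 1184 ± 210 CPM per kb in KO and WT input (SD, n = 5 KO and 6 WT). It was followed by Rps21, Rps29, Rplp1, Rpl41 and Rps25. Rplp1 belongs to the stalk, which recruits elongation factors, and Rpl41 is the shortest protein of the ribosome. Rps27 shares 98.6% of its windows with other genes, so its place at the top is uncertain.

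At the low end of the tested genes, Rpl6l had 0.65 ± 0.29 CPM per kb in KO pulldowns and 0.39 ± 0.08 in WT pulldowns. The pseudogenes Rpl32l, Rps3a3 and Rps3a2 followed, and then Rpl24 and Rpl7l1, for which the mean over the 4 groups was 6.45 and 6.59 CPM per kb. Rpl24 is a large-subunit protein, and 81.7% of its windows are shared. Rpl3l, Rpl39l, Rpl10l and Rps12l1 were too low to test in any comparison, and Rpl32l too low in the pulldown comparison. Rpl3l is known from muscle, and Rpl10l and Rpl39l from testis. Rpl10l and Rps12l1 had 0 CPM per kb in every group mean. The order of the 81 levels was nearly the same in each group, with a Spearman rho over genes of 0.992 between KO and WT pulldowns, 0.997 between KO and WT input, 0.947 between KO pulldown and KO input and 0.956 between WT pulldown and WT input. These are descriptions across genes, which are not independent replicates.

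Pulldown was compared with input to see which mRNAs of the tissue were found with tagged ribosomes of D1 neurons. In KO, 83 of 88 tested genes of the set fell in pulldown and 0 rose, with a median log2 fold change of -1.23. Of all 17311 genes tested in that comparison, 26.4% fell, and the median over all genes was -0.11. In WT, 83 of 88 fell and 0 rose, with a median of -1.05, where 27.8% of all genes fell and the median over all genes was again -0.11. In either direction, 47.3% of all genes were called in KO and 49.6% in WT. Calls are an adjusted p under 0.05 from edgeR's quasi-likelihood test, with Benjamini-Hochberg adjustment over all genes. In these bulk samples less RNA of a gene in D1 neurons than in the other cells of the striatum and less of it bound to ribosomes cannot be told apart.

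Small-subunit genes had lower median folds than large-subunit genes. All 31 small-subunit genes fell in KO and all 31 in WT, and their median log2 folds were -1.35 in KO and -1.15 in WT. All 42 large-subunit genes fell in KO and 41 in WT, with medians of -1.16 in KO and -0.93 in WT. The median of the small-subunit genes lay below that of the large-subunit genes in each of the 11 animals. Of 11 tested paralogs 7 fell in KO and 8 in WT, with medians of -1.29 in KO and -1.24 in WT. The 3 stalk genes fell in both genotypes, with medians of -1.01 in KO and in WT. Among them Rplp1 had log2 folds of -1.61 ± 0.19 in KO and -1.42 ± 0.17 in WT (SE), Rplp0, the base of the stalk, -1.01 ± 0.11 and -1.01 ± 0.10, and Rplp2 -0.997 ± 0.14 and -0.78 ± 0.12.

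Rps27 (chr3:90212522-90213651, minus strand) was the gene with the lowest fold in KO and was second to its retrogene Rps27rt in WT. It had 137.2, 186.6, 86.6, 146.0 and 148.2 CPM in KO pulldowns, against 486.9, 513.4, 377.0, 695.5 and 667.6 CPM in KO input. In WT it lay between 105.9 and 153.7 CPM (median 139.2) in pulldowns and between 330.4 and 530.8 CPM (median 390.3) in input. No pulldown reached any input. The log2 fold was -1.96 ± 0.19 in KO (SE, adjusted p = 1.8e-08) and -1.61 ± 0.17 in WT (SE, adjusted p = 6.1e-08) by edgeR. Rps20, a small-subunit protein with 7.58% of windows shared, had folds of -1.81 ± 0.14 in KO and -1.58 ± 0.12 in WT. The 9 coding genes with at most 20% of windows shared had median folds of -1.28 in KO and -1.08 in WT, and the 18 with more than 80% shared -1.19 and -0.93. Over 81 genes, the share of windows held in common and the fold had a Spearman rho of 0.06 in KO and 0.11 in WT.

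The other genes of strong depletion in WT were Rps2, Rps27l, Rpl32, Rpsa and Rps16, with log2 folds between -1.55 (Rps2, and Rps27l likewise) and -1.45 (Rps16), and between -1.63 (Rps16) and -1.48 (Rps2) in KO. Rpsa (chr9:120127689-120132369, plus strand), also known as a laminin receptor, had 74.2, 80.7, 60.7, 82.6 and 70.5 CPM in KO pulldowns, against 202.0, 203.7, 175.6, 217.0 and 234.1 CPM in KO input. Its WT pulldowns lay between 54.2 and 71.8 CPM (median 62.8) and its WT inputs between 150.8 and 205.3 CPM (median 173.4). The pulldowns of Rpsa lay below its inputs without overlap, with log2 folds of -1.49 ± 0.10 in KO and -1.47 ± 0.09 in WT.

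**Figure D2:**
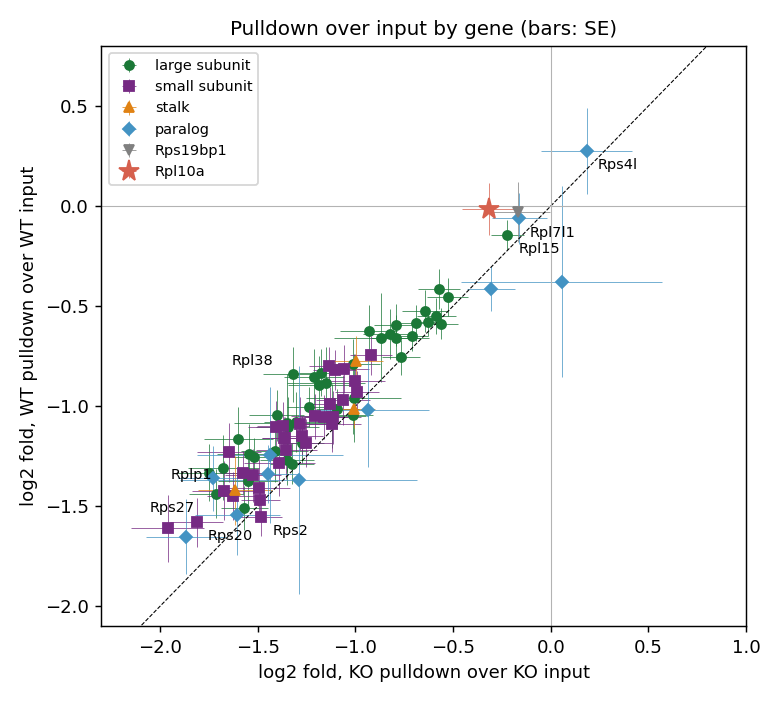
Log2 fold change of pulldown over input in KO (x axis) and in WT (y axis) for each tested gene, with standard errors, coloured by class, and with the line of equal folds dashed. Most points lie between -0.5 and -2 on both axes and above the line, and Rpl10a, Rpl15, Rpl7l1, Rps19bp1 and Rps4l lie near 0 in WT.

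A few genes had folds close to 0 and were not called. Rps4l, a transcribed pseudogene copy of the X-linked Rps4x, had log2 folds of 0.18 ± 0.23 in KO and 0.27 ± 0.21 in WT and did not pass the test in either, whereas Rps4x fell by 1.13 in KO and by 0.99 in WT on the log2 scale. Rps19bp1 (-0.17 ± 0.17 in KO, -0.03 ± 0.15 in WT), Rpl7l1 (-0.16 ± 0.14 in KO, -0.06 ± 0.13 in WT) and Rpl6l (0.06 ± 0.51 in KO, -0.38 ± 0.48 in WT) did not pass either. Rpl32l passed in WT (-1.37 ± 0.57, adjusted p = 0.047) and not in KO (-1.29 ± 0.61, adjusted p = 0.082), and with the animal as a block it passed in neither (WT adjusted p = 0.104). No test compared the genotypes' calls other than the interaction given further on.

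Rpl15 (chr14:18267823-18271391, minus strand) encodes a large-subunit protein and had the smallest fold of the subunit genes. It had 133.2, 152.5, 121.3, 103.6 and 116.4 CPM in KO pulldowns, against 152.2, 148.9, 144.3, 146.8 and 138.7 CPM in KO input. In WT it lay between 105.3 and 122.4 CPM (median 111.4) in pulldowns and between 114.1 and 137.2 CPM (median 123.1) in input. The ranges of pulldown and input overlapped in both genotypes. The log2 fold was -0.22 ± 0.08 in KO (SE, adjusted p = 0.029) and -0.14 ± 0.08 in WT (SE, adjusted p = 0.117) by edgeR. Rpl6, Rpl7 and the paralog Rpl36al fell in both genotypes by small amounts, with folds of -0.57, -0.53 and -0.31 in KO and -0.41, -0.46 and -0.41 in WT.

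Other copies were depleted as well. Rpl22l1, a paralog of Rpl22, had folds of -1.45 ± 0.16 in KO and -1.34 ± 0.15 in WT, close to Rpl22 itself at -1.55 ± 0.15 and -1.37 ± 0.14. Rps27l, a paralog known as a p53 target, had folds of -1.61 ± 0.22 in KO and -1.55 ± 0.20 in WT. Rpl37rt, Rps3a2 and Rps3a3 fell in both genotypes as well, each with many shared windows. Among coding genes with a promoter, the 14 with a start at C and 4 pyrimidines had a median fold of -1.34 in KO and -1.10 in WT, and the 47 with another start -1.21 in KO and -1.05 in WT, with ranges that overlap (-1.96 to -0.22 and -1.75 to -0.16 in KO).

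The groups of libraries rarely overlapped. For 83 of 88 genes each KO pulldown lay below each KO input, where 19.6% of all genes did so. For 76 of 88 genes each WT pulldown lay below each WT input, where 17.3% of all genes did so. Within single animals the median over the 88 genes of the log2 ratio of pulldown over input was -1.15, -0.97, -1.26, -1.39 and -1.37 in KO animals 2, 3, 9, 10 and 11, and between -1.48 and -0.64 (median -1.01) in WT animals. The ranges of the genotypes overlapped, and WT animals 12 and 1 held both ends. The median over all genes lay between -0.14 and -0.05 in each animal.

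**Figure D3:**
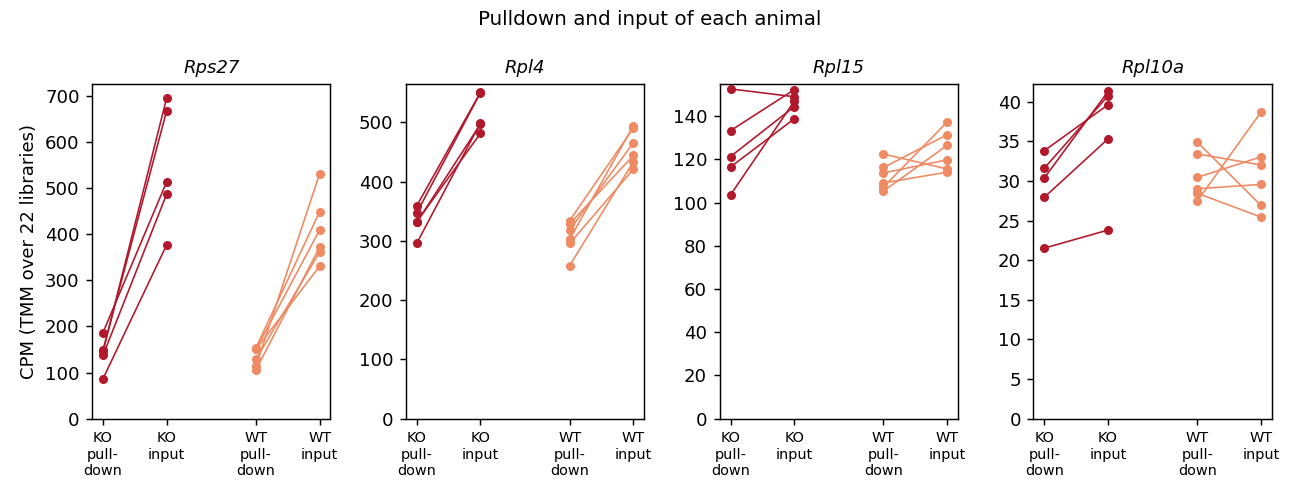
CPM of Rps27, Rpl4, Rpl15 and Rpl10a in the pulldown and the input of each animal, joined by lines, KO animals left and WT animals right in each panel. All lines of Rps27 and Rpl4 rise towards input, and lines of Rpl15 and Rpl10a run in both directions in WT.

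Folds moved with coding length, and the set was compared with other genes in its range of lengths. Over 81 coding genes, longer genes had higher folds, with a Spearman rho of coding length and log2 fold of 0.52 in KO and 0.37 in WT, against 0.21 and 0.25 over 13974 other genes. The 11 shortest, up to 300 bases, had median folds of -1.61 in KO and -1.31 in WT, the 48 between 300 and 600 bases -1.26 and -1.09, and the 19 between 600 and 900 bases -0.99 and -0.82. Other genes with coding lengths anywhere between 75 and 1257 bases, 6084 in number, had medians of -0.18 in KO and -0.20 in WT. Of them, 20.5% in KO and 22.1% in WT lay below the median of the set. They were not matched to the set by length. The 1495 other genes between 300 and 600 bases had medians of -0.28 in KO and -0.31 in WT, with lower quartiles of -0.90 and -0.88. The part of gene length in the result was not tested.

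**Figure D4:**
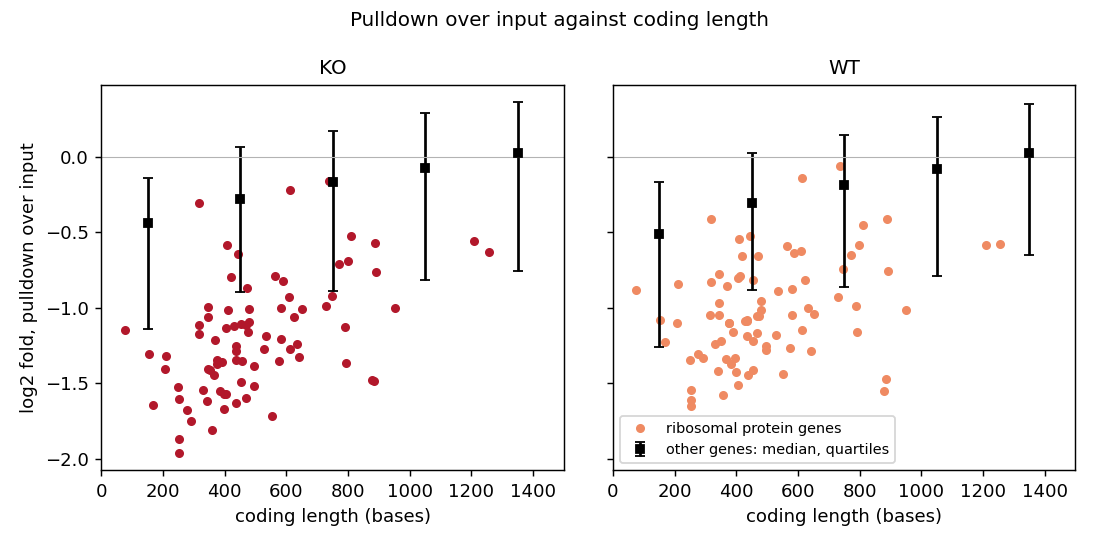
Log2 fold of pulldown over input against coding length in bases, KO left and WT right, for genes of the set (points) and for other genes in bins of 300 bases (median with quartiles). Up to 300 bases the set has a median of -1.61 in KO and other genes -0.44, and the 2 genes past 1200 bases, Rpl3 and Rpl4, lie between -0.63 and -0.56.

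Rpl10a (chr17:28328471-28331033, plus strand), the tagged gene, was not called in either genotype. Counts of this gene could come from the gene itself and from the transgene, and the files do not separate them. It had 33.8, 27.9, 21.5, 31.6 and 30.4 CPM in the pulldowns of KO animals 2, 3, 9, 10 and 11, against 39.6, 35.3, 23.8, 40.8 and 41.3 CPM in their input. In WT it lay between 27.5 and 34.9 CPM (median 29.7) in pulldowns and between 25.5 and 38.7 CPM (median 30.8) in input. The groups overlapped in both genotypes. The log2 fold was -0.32 ± 0.14 in KO (SE, adjusted p = 0.068) and -0.01 ± 0.13 in WT (SE, adjusted p = 0.938) by edgeR.

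Within animals, Rpl10a was lower in pulldown than in input in 5 of 5 KO animals, with a mean log2 ratio of -0.30 ± 0.12 (SD, n = 5) and an exact sign-flip p of 0.0625, 2-sided, the smallest that 5 animals allow. In WT it was higher in 3 of 6 animals, with a mean of -0.0070 ± 0.29 (SD, n = 6) and an exact sign-flip p of 0.969. With the animal as a block, which takes up the pairing of pulldown and input, the KO fold passed the test (-0.30, adjusted p = 0.023), and the WT fold did not (-0.0033, adjusted p = 0.981). Of the 88 other genes, between 80 and 87 had a lower ratio than Rpl10a in each of the 11 animals. The difference between the genotypes' folds was -0.30 ± 0.19 (SE) and did not pass the interaction test (unadjusted p = 0.128, edgeR).

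Other lists, written with general knowledge of these pathways, were set beside the ribosomal set. Fau and Rack1, whose products belong to the small subunit under other names, fell in both genotypes, with log2 folds of -0.50 and -0.59 in KO and -0.42 and -0.63 in WT. Of 14 TOP mRNAs outside the ribosome, 10 fell and 3 rose in KO and 9 fell and 3 rose in WT, with medians of -0.43 and -0.39. Over all genes, 26.4% fell and 20.9% rose in KO, and 27.8% fell and 21.8% rose in WT. Tpt1, which encodes a growth-related tumor protein, fell by 0.96 in KO and by 0.90 in WT on the log2 scale. Eef1g, a subunit of elongation factor 1, had folds of -0.81 and -0.78. Eif4b, an initiation factor, rose in KO (0.54 ± 0.07). No TOP mRNA of this list reached the median of the ribosomal set in KO or WT, the lowest being -1.08 in KO (Eef1b2) and -0.90 in WT.

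Among genes that build or control ribosomes, more rose than fell. Of 32 biogenesis genes, 20 rose and 0 fell in KO, and 17 rose and 0 fell in WT, where 20.9% and 21.8% of all genes rose. Ubtf, a transcription factor of ribosomal DNA, had folds of 0.92 ± 0.10 in KO and 0.90 ± 0.09 in WT, and Rrp1, which acts in rRNA processing, 0.64 ± 0.07 and 0.71 ± 0.06. Of 22 genes for the control of TOP mRNAs and for S6 kinases, 13 rose and 3 fell in each genotype. Among them Larp4b had folds of 0.66 in KO and 0.59 in WT, and Larp4 0.51 and 0.60. Of 11 tested genes for stalled ribosomes, 2 rose and 0 fell in KO and 4 rose and 0 fell in WT. The count that rose in KO was near the share of 20.9% over all genes. Ltn1, which marks stalled chains for decay, had folds of 0.60 and 0.65. Of 77 mitochondrial ribosomal protein genes, 8 rose and 12 fell in KO and 9 rose and 14 fell in WT, with medians of -0.05 and -0.12. Thus 15.6% of them fell in KO and 18.2% in WT, where 26.4% and 27.8% of all genes fell.

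Cell markers were read in the same comparison, where 26.4% of all genes fell and 20.9% rose in KO. In WT, 27.8% of all genes fell and 21.8% rose. All 9 markers of D1 neurons rose, with median log2 folds of 1.62 in KO and 1.30 in WT. All 6 of D2 neurons (-3.64 in KO, -3.83 in WT), all 10 of astrocytes (-3.69, -3.84), all 10 of oligodendrocytes (-4.83, -5.27) and all 10 of microglia (-5.58, -5.09) fell. So did all 6 of oligodendrocyte precursors and all 5 of red blood cells in both genotypes. Of 9 interneuron markers, 7 fell in KO and 8 in WT. Of 8 markers of endothelium and mural cells, 6 fell in KO and 7 in WT, and of 5 tested of ependyma and choroid plexus, 2 fell in KO and 4 in WT. Of 10 cortical markers, 1 fell and 2 rose in each genotype, the 2 being Lamp5 (0.47 in KO, 0.57 in WT) and Mef2c (0.64, 0.76). Scaled within each assay, the summed astrocyte markers lay between 171.4 and 582.0 CPM in KO pulldowns and between 229.4 and 432.7 CPM in WT pulldowns. In input, scaled apart from the pulldowns, they lay between 2177 and 3232 CPM in KO and between 2231 and 2962 CPM in WT. Pulldown and input sums are therefore not on a shared scale. Of the 6 markers of ependyma and choroid plexus, 1 had no read in any KO pulldown. No other marker of these lists was at 0 in every library of a group. The part of these cells in the fall of ribosomal protein mRNAs was not tested.

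KO and WT pulldowns were compared to see whether ribosome-bound mRNA differs with the loss of Fmr1. No gene of the set passed the test among 87 tested, where 0.0553% of 14456 genes did, all of them lower in KO. The median log2 fold of KO over WT was 0.09, with 69 of 87 positive, against 0.0041 over all genes. In the same comparison the mitochondrial ribosomal proteins had a median of 0.098 with 62 of 77 positive. Some marker lists of other cells lay further up. Their medians were 0.65 for interneurons (7 of 8 positive), 0.37 for cortical neurons (8 of 10), 0.32 for astrocytes (9 of 10) and 0.22 for oligodendrocytes (9 of 10). Endothelium and mural cells had 0.70 (3 of 3 tested) and red blood cells 0.14 (2 of 3). Other lists lay lower, with -0.019 for microglia (3 of 6), -0.22 for oligodendrocyte precursors (0 of 2) and -0.98 for ependyma and choroid plexus (0 of 3). The D2 list had 0.10 with 4 of 6 positive, and the D1 list -0.068 with 3 of 9 positive. No gene of these lists passed the test, and their part in the shift of the set was not tested. At an unadjusted p under 0.05, edgeR counted 3 genes higher and 0 lower, where 3.11% of all genes were higher, 4.51% lower and 7.62% either. The 3 were Rpsa (0.24 ± 0.10, adjusted p = 0.605), Rpl32 (0.24 ± 0.10, adjusted p = 0.609) and Rps27a (0.23 ± 0.11, adjusted p = 0.648), where Rps27a is made as a fusion with ubiquitin. DESeq2 and limma-voom called 0 genes of the set, where they called 65 of 9969 and 4 of 14456 genes in all. At an unadjusted p under 0.05 they had 3 and 2 of the set, where 3.09% and 3.53% of all genes were higher.

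Rpsa had the smallest p of the 87 genes, and its fold of 0.24 lay above the median of the set. Scaled within the pulldowns it had 86.0, 93.5, 70.2, 94.8 and 82.6 CPM in KO animals 2, 3, 9, 10 and 11, against 62.9 to 81.8 CPM (median 72.5) in WT animals. KO animal 9 lay among the WT animals and the other 4 KO animals above them. Small-subunit genes had a median of 0.10, large-subunit genes 0.07 and the 3 stalk genes 0.11. Among the next by p on the positive side were Rpl14, Rpl3, Rpl15 and Rps4x, with folds between 0.16 and 0.18. On the negative side Rpl26 had -0.19 ± 0.16 and Rpl38 -0.10 ± 0.13, with Rps24, Rpl36a, Rps29, Rps13 and Rpl13a between -0.09 and -0.07, and none passed. On the log2 scale the median gene of the set differed from the WT mean by 0.11, 0.27, -0.27, 0.18 and 0.14 in the pulldowns of KO animals 2, 3, 9, 10 and 11. WT pulldowns ran between -0.23 and 0.14 on the same scale.

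In the pulldowns the count of genes at an unadjusted p under 0.05 depended on single animals. It was 19 without animal 9, 9 without animal 2, 5 without animal 1 or 4, 1 without animal 12 and 0 without animal 3 or 20, and the count past the adjusted threshold stayed 0 in each. All of these genes were higher in KO, and 2.52% to 3.63% of all genes were higher at that p in the fits without 1 animal. Without animals 1, 3, 9 and 12 the median was 0.14, with 78 of 88 positive. At an unadjusted p under 0.05, 11 were then higher, where 3.18% of all genes were. Within those 4 animals, KO 3 and 9 against WT 1 and 12, the median was 0.0030 with 47 of 87 positive. For Rpl10a the difference in mean log2 CPM was -0.08, with an exact permutation p of 0.574, 2-sided (n = 5 KO and 6 WT).

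KO and WT input were compared to see whether the tissue RNA behind the pulldowns differs. No gene of the set passed the test among 88, where 0.0183% of 16429 genes did, all of them lower in KO. All 88 folds of KO over WT were positive, with a median of 0.24 against 0.0025 over all genes. At an unadjusted p under 0.05, edgeR counted 46 genes, all higher, where 3.16% of all genes were higher, 3.68% lower and 6.84% either. DESeq2 and limma-voom called 0 genes of the set, where they called 28 of 15447 and 3 of 16429 genes in all. At an unadjusted p under 0.05 they had 50 and 40 of the set, where 3.55% and 3.18% of all genes were higher. These genes moved together between animals, as given below, and are not independent counts.

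Rps4x, which encodes an X-linked small-subunit protein, had the smallest p in input. It had 310.1, 305.0, 268.2, 385.5 and 340.7 CPM in KO animals 2, 3, 9, 10 and 11, scaled within input, against 244.1 to 284.3 CPM (median 263.4) in WT animals. KO animal 9 lay within the WT range and the other 4 KO animals above it. The fold was 0.29 ± 0.09 (SE, adjusted p = 0.485). Rps28, a short small-subunit protein, had 118.4, 114.7, 83.7, 139.5 and 136.5 CPM in the same KO animals, against 78.7 to 113.1 CPM (median 88.5) in WT animals. Animal 9 again lay within the WT range. The fold was 0.38 ± 0.12 (SE, adjusted p = 0.514). Rpl15 (0.23 ± 0.07), Rpl9 (0.30 ± 0.10), Rps18 (0.38 ± 0.13), Rps16 (0.34 ± 0.12) and Rpl23a (0.46 ± 0.16) were among the next, with adjusted p-values between 0.543 and 0.572 by edgeR. For no gene of the set were the input groups free of overlap, where 0.237% of all genes had each KO above each WT library.

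The shift in input rested on some animals more than on others. The median gene of the set lay 0.51 and 0.40 above the WT mean in KO animals 10 and 11, 0.20 and 0.18 in KO animals 2 and 3, and -0.07 in KO animal 9. Of the WT animals, 12 had 0.30 and the others between -0.20 and 0.11. Mitochondrial ribosomal RNA took 53.2% and 41.0% of input counts in KO animals 10 and 11 and 37.1% in WT animal 12, the 3 highest of 11, and its part in the result was not tested. The count of genes at an unadjusted p under 0.05 was 46 with all animals. It was 16 without animal 10, 20 without animal 11, 26 without animal 1 and 30 without animal 13. Without animals 4, 20, 3 and 2 in turn it was 34, 35, 43 and 44. It rose to 47 without animal 14, 61 without animal 12 and 67 without animal 9. In these fits 2.49% to 4.08% of all genes were higher at that p.

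The result in input also depended on the 4 animals with high Slc17a7. Without them, KO animals 2, 10 and 11 against WT animals 4, 13, 14 and 20 gave a median of 0.41 with 88 of 88 positive, and 72 genes had an unadjusted p under 0.05, where 4.71% of all genes were higher and 6.12% lower at that p. Rps20 (0.59 ± 0.09, adjusted p = 0.039) and Rps28 (0.58 ± 0.09, adjusted p = 0.048) then passed by edgeR, in a fit of 7 libraries where 7 of 16693 genes passed. Within the 4 animals, KO 3 and 9 against WT 1 and 12, the median was -0.0057 with 41 of 88 positive and 2 genes lower at an unadjusted p under 0.05, where 2.58% of all genes were lower. Among cell markers in input, where none passed the test, the D1 list had a median log2 fold of -0.25 with 9 of 9 negative, the D2 list -0.13 with 6 of 6 negative, the cortical list 0.52 with 8 of 9 positive and the astrocyte list 0.20 with 8 of 10 positive. The part of cell makeup in the shift was not tested.

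**Figure D5:**
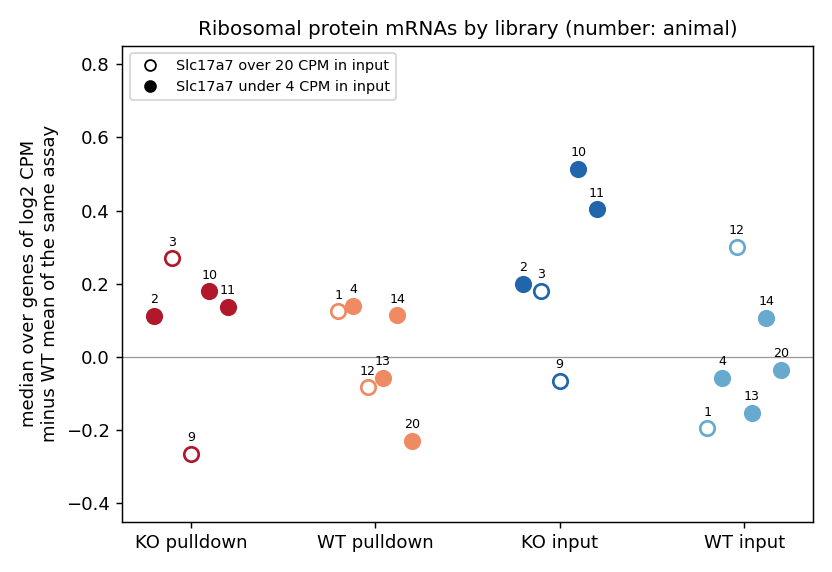
Median over the set of log2 CPM minus the WT mean of the same assay, 1 point per library with the animal's number, for KO and WT pulldowns and KO and WT input. Open circles are animals 1, 3, 9 and 12, with Slc17a7 over 20 CPM in input. KO animals 10 and 11 lie highest in input at 0.51 and 0.40, and KO animal 9 lies below 0 in both assays.

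For input, the authors' deposited table had all 88 genes of the set higher in KO and 0 past an adjusted p of 0.05, where 42 of 17692 genes were past it, with the smallest at 0.187 for Rpl15. For pulldowns, the authors' deposited table had 65 of 84 higher in KO and 0 past 0.05, where 81 of 10769 genes were past it, with the smallest at 0.400 for Rpsa. In input, Rpl10a differed between KO and WT by 0.20 in mean log2 CPM, with an exact permutation p of 0.238, 2-sided, and without animal 9 by 0.34, with an exact permutation p of 0.0286. Without any other single animal it differed by 0.15 to 0.27, with exact permutation p-values between 0.135 and 0.419.

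The interaction asks whether pulldown over input differs between KO and WT. No gene of the set passed among 88, and 0 of all 17311 genes did by edgeR. The median of the set was -0.17, with 80 of 88 negative, against 0.0011 over all genes. At an unadjusted p under 0.05, 2 genes were lower, among them Rpl38 (-0.48 ± 0.20), where 2.15% of all genes were lower, 1.95% higher and 4.1% either. DESeq2 and limma-voom called 0 of the set, where they called 5 of 17298 and 0 of 17311 genes in all. Each had 4 of the set lower at an unadjusted p under 0.05, where 2.34% and 1.92% of all genes were lower. Rpl38, a large-subunit protein known in mouse for its role in the translation of Hox mRNAs, had folds of pulldown over input of -1.32 ± 0.15 in KO and -0.84 ± 0.14 in WT. With the animal as a block, 11 genes were lower at an unadjusted p under 0.05, where 2.28% of all genes were, and 0 passed.

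Rpl38 had 67.7, 72.8, 45.6, 73.9 and 71.3 CPM in KO pulldowns, against 55.7 to 86.1 CPM (median 73.7) in WT pulldowns, scaled within the assay. It had 111.0, 118.6, 95.4, 157.5 and 133.7 CPM in KO input, against 81.8 to 124.9 CPM (median 88.8) in WT input. In the pulldowns KO animal 9 lay below all WT animals and the other 4 KO animals among them, and in input KO animals 10 and 11 lay above all WT animals. Rpl36a, Rpl37, Rps13, Rps29, Rpl30 and Rpl23a followed by p, with differences between -0.43 (Rpl23a) and -0.29 (Rps13). The count at an unadjusted p under 0.05 was 0 without animal 1 or 13, 1 without animal 4 or 11, 4 without animal 20, 6 without animal 9, 7 without animal 3 and 19 without animal 12. All of these genes were lower, and 1.97% to 2.48% of all genes were lower at that p in the fits without 1 animal. Without animals 1, 3, 9 and 12 the median was -0.25 with 21 genes lower at an unadjusted p under 0.05, where 2.92% of all genes were lower. Within those 4 animals the median was 0.04 with 0 genes at that p.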

How the data were processed

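The authors deposited counts per gene symbol, made with STAR and featureCounts on mm10 (the submitters' processing notes; versions are not given in the sources used here). They also deposited tables of log2 fold changes (WT over KO) and adjusted p-values, and the notes name DESeq2; values from those tables are named as the authors' in the text. Libraries were paired-end, without strand and in a single batch, per the labels' protocols.

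Here the counts were fitted with edgeR 4.0.16 in R 4.3.3 (TMM, filterByExpr, robust quasi-likelihood test, Benjamini-Hochberg over all genes, threshold 0.05): genotype within the 11 pulldowns and the 11 inputs, pulldown against input and the interaction over all 22 libraries. CPM are TMM-scaled over 22 libraries unless said to be scaled within an assay, log2 CPM used a prior count of 2, and exact permutation tests log2(CPM + 0.5). GENCODE vM21 (GRCm38) gave lengths, types and overlaps. The main edgeR fits were run on simulated counts, drawn independently for each gene and library, without the pairing of animals. These held no true change for the interaction, and the alternatives were not simulated. DESeq2 1.42.0, limma-voom 3.58.1, other scalings and filters, the animal block and fits without animals were alternatives. Pulldown and input of an animal share a lysate per the labels' protocols. Their deviations from group means correlated by 0.19 to 0.47 over 8621 genes, each pulldown best with its own input, in 11 of 11 animals. Each number is taken as an animal, so p-values for genotype within an assay measure the spread between these animals. The main fits of pulldown against input and of the interaction treat the 22 libraries as unpaired. Their p-values measure the spread of libraries within groups, and only the block and sign-flip tests use the pairing. 

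The set and the lists were chosen with earlier results of these data known. Named by rule were up to 8 genes per direction by p for genotype, the 8 highest and 8 lowest folds in WT, genes not called, stalk genes and paralogs for pulldown against input, 8 by p for the interaction, and the 6 highest and lowest levels per length. Rpl4 and Rpl22 were named after their values were seen. Single values of some genes are not reported here.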

Additional observations from a re-analysis of the deposited data

Results flagged for a closer look

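In the 106 groups of libraries checked for a single value far from the others, 3 were found, where chance gives about 1 in 20. In KO pulldowns, animal 9 had Rpl38 at 45.6 CPM, with the other 4 between 67.7 and 73.9 CPM, and Rps29 at 77.9 CPM, with the others between 128.0 and 145.7 CPM. The log2 ratio of pulldown over input of the pseudogene Rps3a2 was -1.84 in WT animal 20, with the others between -0.999 and -0.595.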

How the results depend on the processing

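Of 98 counts of called genes recomputed, 97 stayed within 1.5 times; the exception is KO over WT in input without animals 1, 3, 9 and 12, with 2 genes. With the animal as a replicate block, calls for pulldown against input were 83 in KO and 82 in WT (8906 and 9319 over all genes) and 0 for the interaction, and of the genes named the block changed the calls of Rpl10a in KO and Rpl32l in WT. The Rpl10a fold in KO also passed with DESeq2's size factors (adjusted p = 0.036), library totals without mitochondrial ribosomal RNA (0.0064), a minimum CPM (0.043), DESeq2 (0.031), without animal 9 (0.024) and without the 4 animals (0.031), and its adjusted p ranged between 0.0064 and 0.540 over all alternatives. Leaving out single animals gave 80 to 83 calls in KO and 81 to 83 in WT. Fits on animals 1, 3, 9 and 12 alone, chosen after seeing the data, gave 73 in KO and 71 in WT. With library totals the median of all genes for pulldown against input moved to -0.28 in KO and -0.31 in WT, and that of the set to -1.40 and -1.26. Some signs turned. In KO over WT pulldowns without the 4 animals, Rpl26 had 0.052, Rps24 0.051, Rpl13a 0.022 and Rpl10a 0.083. In KO over WT input with those animals alone, Rps18 had -0.053 and Rpl10a -0.15, and for the interaction Rpl30 had 0.046. In KO pulldown over input, Rpl6l had -0.12 with library totals, -0.024 with limma-voom, -0.021 with the block and -0.41 without the 4 animals. In WT, Rpl7l1 had 0.13 without the 4 animals, Rps19bp1 0.028 with limma-voom and 0.16 with those 4 alone, and Rpl10a 0.0074 without a filter, 0.021 with limma-voom and 0.015 without the 4. Leaving out each animal, KO over WT in pulldowns ranged between -0.13 and 0.0040 for Rps24, -0.16 and 0.0070 for Rpl38, -0.17 and 0.013 for Rpl36a, -0.15 and 0.044 for Rps29, -0.15 and 0.03 for Rps13, -0.22 and 0.016 for Rpl13a, -0.13 and 0.022 for Rpl10a by edgeR and -0.14 and 0.024 by log2 CPM, turning positive without animal 9. For Rpl10a in input the difference in log2 CPM ranged between 0.15 and 0.34. The fold of pulldown over input ranged between -0.18 and 0.27 for Rpl6l in KO, and in WT between -0.14 and 0.054 for Rpl7l1, -0.11 and 0.11 for Rps19bp1 and -0.094 and 0.087 for Rpl10a. The causes were not tested. Depth limits the lowest copies, Rpl32l, Rpl6l, Rps3a2 and Rps3a3.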
